A study of Homo sapiens with 2 samples.

Results

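The transcripts described here encode the proteins of the cytosolic ribosome. They were taken from the count matrix by name, as genes called RPL or RPS followed by a number, with an optional letter and a further number, together with RPLP0, RPLP1, RPLP2 and RPSA. This gave 81 of the 16251 genes, 32 of the small and 49 of the large subunit. The name rule leaves out some genes that also encode ribosomal proteins, of which FAU, RACK1 and RPL36AL are given separately. All 81 members had counts in both libraries and passed the limit for measured genes, which was 5 counts per 1000000 counts of a library in either library.

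The cells were MDA-MB-453, a human breast cancer line labelled WT and triple-negative, kept for 24 hours with water as vehicle or with IL1β and TNFα (10 ng/ml), and 1 culture of each was sequenced as single cells from transcript 3′ ends. The study was concerned with which cells of the line express the enzyme TDO2 and raise it under cytokines that activate NF-κB. The vehicle library held 2822 cells and 58587996 unique molecular identifiers (UMIs, each counting 1 captured molecule), and the cytokine-treated library held 3163 cells and 69592446 UMIs, at medians of 20249 and 21508 UMIs per cell. With 1 library per condition no test between conditions could be made, so values are given with exact 95% intervals that cover counting error only, and the treatment and the culture cannot be told apart. Luminal epithelial markers were found in both libraries, among them FOXA1 at 157 and 146 counts per 1000000 UMIs (CPM) and KRT18 at 688 and 1457 CPM in the vehicle and cytokine-treated libraries. All 7 luminal markers used were measured, at sums of 2375 and 5058 CPM. Of the markers of other cell types, COL1A1 was at 20.9 and 20.1 CPM, LYZ had 5 and 4 UMIs and PECAM1 had 0 and 11 UMIs. ERBB2, a receptor that the triple-negative label puts as low, was at 129 and 208 CPM.

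Each ribosome carries 1 copy of most of its proteins and several of the acidic stalk proteins, and cells coordinate the output of these genes to a large part at translation. Most ribosomal protein mRNAs begin at a C that is followed by a run of pyrimidines, the 5′ terminal oligopyrimidine (TOP) tract, through which mTOR signalling and the repressor LARP1 set how much of the mRNA is translated and how much is stored. A few proteins have copies encoded by second genes, usually of low level, that can replace their partner in the ribosome. Some are also known for roles outside it, as RPL5 and RPL11 are for restraining MDM2.

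To show what the TOP tract looks like in these genes, start windows of 30 bases are given for 4 members with a tract from the upper part of the ratio between libraries and 4 from the lower part. They were read from the RefSeq promoter table on GRCh38.p14, 10 bases before the listed start and 20 from it on, and were chosen after the values were seen. Members without a tract at a listed start were passed over, among them RPS29, the lowest, and RPL3, RPL10A and RPS4X, which followed RPL10 at the top. RPS27A, RPS9 and RPS13, which held a tract and had higher ratios than RPL18, were also left out. Capitals mark the run of C and T that begins at a C on the listed start. Where several starts were listed, the one with the longest run was taken.
RPL10: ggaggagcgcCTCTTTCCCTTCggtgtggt
RPL13A: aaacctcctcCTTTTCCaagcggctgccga
RPL7A: attccctttcCTTTCTCTCTCCTCCCgccg
RPL18: agcccgttctCTCTTTCCggacctggccga
RPS21: ctagctgcttCCTTTCTCTCTCgcgcgcgg
RPL36A: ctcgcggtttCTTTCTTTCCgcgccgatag
RPLP1: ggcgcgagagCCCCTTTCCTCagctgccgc
RPSA: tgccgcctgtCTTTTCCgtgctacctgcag
The windows lie for RPL10 at chrX:154398367-154398396 (plus strand), RPL13A at chr19:49487598-49487627 (plus strand), RPL7A at chr9:133348208-133348237 (plus strand), RPL18 at chr19:48619159-48619188 (minus strand). The others lie for RPS21 at chr20:62387093-62387122 (plus strand), RPL36A at chrX:101391001-101391030 (plus strand), RPLP1 at chr15:69452808-69452837 (plus strand), RPSA at chr3:39406710-39406739 (plus strand). The runs were 12, 7, 16 and 8 bases long in RPL10, RPL13A, RPL7A and RPL18, and 12, 10, 11 and 7 bases long in RPS21, RPL36A, RPLP1 and RPSA, so longer and shorter runs were found among both sets shown. Searched on the transcribed strand for a C at the start followed by C or T to a run of at least 5 bases, 47 of the 66 members with an entry (71.2%) held the tract, against 7.37% of 7271 other measured genes and 5.14% of all 27305 symbols in the table. The median log2 ratio (cytokine-treated over vehicle) was -0.20 for the 47 members with the tract and -0.05 for the 19 without it. A match describes these letters at a listed start, and cells can use other starts.

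Ribosomal protein transcripts made up 29.5% of all UMIs in the vehicle library and 26.9% in the cytokine-treated library, a log2 ratio of -0.13 (-0.133 to -0.132). The median cell gave 29.3% of its UMIs to these genes in the vehicle library, with 23.5% and 35.8% at the 5th and 95th percentiles and a range from 12.4% to 45.5%. In the cytokine-treated library the median cell gave 26.7%, the percentiles were 21.0% and 33.9%, and the range ran from 13.5% to 41.2%. The cells of both libraries overlapped over most of this range. A single gene held part of the sum up, since without RPL10 the members made up 27.7% and 24.3% of UMIs, a log2 ratio of -0.19.

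The shift was not uniform over the members. Their log2 ratios ran from -0.84 to 0.55 around a median of -0.17, with an SD of 0.28 over the 81 genes. A gene was counted as higher or lower when its levels differed by a ratio of at least 5 to 4 with its interval on the same side of no difference. By this rule 22 members were lower and 3 higher in the cytokine-treated library, where 38.6% of all 9192 measured genes were lower and 16.2% higher. None passed 2-fold, a limit that 7.48% of measured genes passed downward and 4.29% upward. Among 221 other nuclear-encoded genes at 500 CPM or more, 25.3% were lower and 30.8% higher by the same rule. All measured genes together had a median of -0.20, and the 221 other genes at 500 CPM or more had a median of -0.008. Every log2 ratio became larger by 0.18 under TMM scaling and by 0.19 under median of ratios scaling. The log2 ratio of the summed members was then 0.045 or 0.060, the median member stood at 0.012 or 0.028, and 11 or 12 members were higher and 8 or 7 lower. Of all measured genes, 25.1% were then higher and 25.1% lower under TMM scaling, and 25.9% were higher and 24.0% lower under median of ratios scaling. Whether the members as a whole were lower or higher therefore depended on the scaling, while their order did not.

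**Figure D1:**
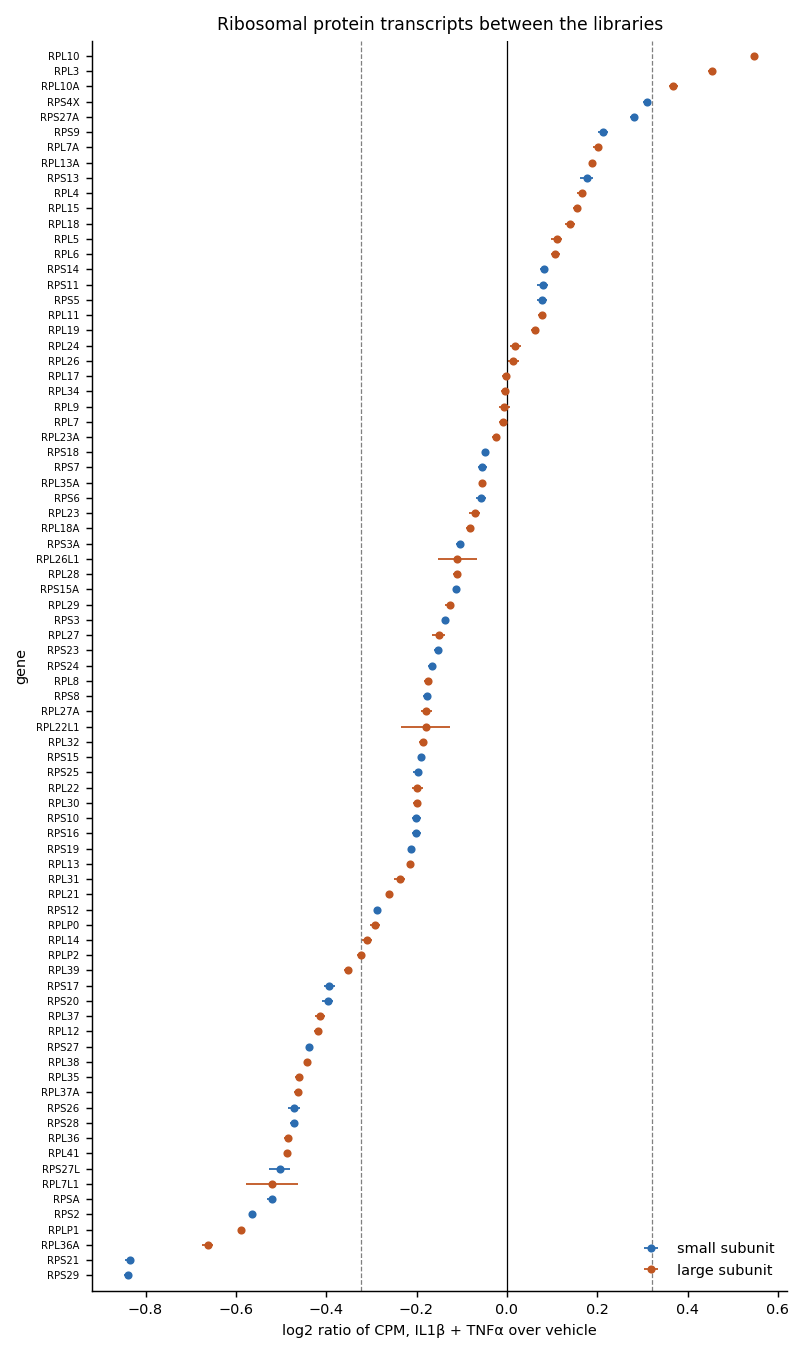
Log2 ratio of CPM, IL1β + TNFα over vehicle, for each of the 81 ribosomal protein genes in order, with exact 95% intervals (counting error only), small subunit in blue and large subunit in orange. Dashed lines mark a ratio of 5 to 4 in either direction. RPL10 stands highest at 0.55 and RPS29 lowest at -0.84.

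At the lower end stood RPS29, a small zinc-binding protein of the small subunit. It was at 4307 CPM with vehicle and 2406 CPM with cytokines (log2 ratio -0.84, -0.85 to -0.83). RPS21, another short protein of the small subunit, was at 3306 and 1853 CPM (log2 ratio -0.84, -0.85 to -0.83). These differences, 1.79-fold and 1.78-fold, were the largest among the members. RPL36A, a short protein of the large subunit, was at 2240 and 1415 CPM (-0.66, -0.67 to -0.65), and RPS2, a protein at the entry of the mRNA channel, was at 14563 and 9853 CPM (-0.56, -0.57 to -0.56). RPSA, which is also known as a precursor of a laminin receptor, was at 2915 and 2033 CPM (-0.52, -0.53 to -0.51). In GENCODE 44 on GRCh38, RPS29 (ENSG00000213741) lies on chromosome 14 from 49570984 to 49599164, RPS21 (ENSG00000171858) on chromosome 20 from 62387103 to 62388520 and RPL36A (ENSG00000241343) on the X chromosome from 101390824 to 101396155.

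The upper end held RPL10, a protein that joins the large subunit late in its assembly and the most abundant member in both libraries. It was at 18064 CPM with vehicle and 26404 CPM with cytokines (log2 ratio 0.55, 0.54 to 0.55). RPL10 took 6.13% of all ribosomal protein UMIs in the vehicle and 9.81% in the cytokine-treated library. RPL3, which lies near the peptidyl transferase centre, was at 2954 and 4044 CPM (0.45, 0.44 to 0.46). RPL10A, the protein of the L1 stalk, was at 2185 and 2820 CPM (0.37, 0.36 to 0.38). These were the 3 members counted as higher. RPS4X, encoded on the X chromosome, followed just outside the limit at 2956 and 3665 CPM (0.31, 0.30 to 0.32), and RPS27A, made as a fusion with ubiquitin, was at 2828 and 3439 CPM (0.28, 0.27 to 0.29). RPS9, RPL7A and RPL13A, the last of which is known for repressing translation when released from the ribosome, stood at 0.21, 0.20 and 0.19. On the lower side RPLP2 was just inside the limit at -0.32 and RPL14 just outside it at -0.31. RPL10 (ENSG00000147403) lies on the X chromosome from 154389955 to 154409168, RPL3 (ENSG00000100316) on chromosome 22 from 39312882 to 39320389 and RPL10A (ENSG00000198755) on chromosome 6 from 35468401 to 35470785. Processed pseudogenes exist for most of these genes and could exchange reads with them, so each count is uncertain to that extent.

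Under the 8 ways of scaling and choosing cells that were run, 7 members were lower in every one, namely RPS29, RPS21, RPL36A, RPLP1, RPS2, RPSA and RPL7L1. RPL10 was the only member higher in every one. RPL3 was higher in 7 of the 8, and fell inside the limit in G1 cells alone. The 8 settings share the same 2 libraries, and calls in all 8 were not counted over all measured genes. Of measured genes, 38.6%, 33.3%, 25.1% and 24.0% were lower by total UMIs, in G1 cells, with TMM and with median of ratios scaling. In the same order 16.2%, 17.1%, 25.1% and 25.9% were higher. A share within the ribosomal protein sum does not depend on scaling. By that measure 7 members took more and 14 took less of the sum past the same limit, where, relative to the same sum, 22.5% of measured genes were higher and 28.1% lower. The 7 with larger shares were RPL10, RPL3, RPL10A, RPS4X, RPS27A, RPS9 and RPL7A, with log2 ratios of shares from 0.33 to 0.68. RPS29 went from 1.46% to 0.895% of the sum (log2 ratio of shares -0.71) and RPS21 from 1.12% to 0.689% (-0.70).

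By subunit, the 32 small subunit genes together went from 11.9% of UMIs in the vehicle to 10.2% in the cytokine-treated library, and the 49 large subunit genes from 17.6% to 16.7%. None of the small subunit genes was counted as higher and 10 as lower (median log2 ratio -0.18). Of the large subunit genes, 3 were higher and 12 lower (median -0.13). Over all measured genes 16.2% were higher and 38.6% lower. With TMM and median of ratios scaling the medians were -0.006 and 0.010 for the small subunit and 0.050 and 0.066 for the large. Of the small subunit genes 4 were then higher under each scaling, and 5 and 4 lower. Of the large subunit genes 7 and 8 were higher, and 3 lower under each. Of all measured genes, 25.1% and 25.9% were higher and 25.1% and 24.0% lower under these scalings. The stalk proteins, which bind the elongation factors, were all on the lower side. RPLP1 was at 9654 and 6423 CPM (-0.59), RPLP2 at 4960 and 3964 CPM (-0.32) and the stalk base RPLP0 at 2330 and 1904 CPM (-0.29). RPL5 and RPL11, which bind the 5S rRNA, stood on the other side of 0, at 1543 and 1665 CPM (0.11) and at 3364 and 3550 CPM (0.08). RPS3, at the mRNA entry and also known as a DNA repair nuclease, was at 5400 and 4910 CPM (-0.14), and RPS6, the substrate of the S6 kinases, at 2067 and 1986 CPM (-0.06), both of which change sign under TMM or median of ratios scaling. These levels count molecules from their 3′ ends and were not divided by transcript length. In the order of levels, RPL10, RPS2, RPLP1, RPL41 and RPL21 led in the vehicle library. The lowest were RPL22L1, RPL7L1, RPL26L1, RPS27L and RPS13, from 91.9 to 1161 CPM.

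The members that stood low were mostly those with the shortest coding sequence, a property seen in the data and then described. Ordered by codons and divided into 3 groups of 27 genes, the shortest (25 to 132 codons) were all below 0, with a median log2 ratio of -0.41, and 17 of them were counted as lower, beside 38.6% of all measured genes. With TMM or median of ratios scaling 5 or 4 of them were counted as lower, beside 25.1% or 24.0% of all measured genes. Under these scalings 4 or 5 of the shortest stood above 0, and their median was -0.24 or -0.22. The middle group (135 to 188 codons) had a median of -0.11 and 2 genes counted as lower. The longest group (192 to 427 codons) had a median of -0.01, with 3 genes higher and 3 lower. Under the other scalings 9 genes of the longest group were higher and 3 lower. Of all measured genes 25.1% or 25.9% were then higher and 25.1% or 24.0% lower. The shortest genes went from 34.6% to 28.9% of the ribosomal protein sum, the middle group from 29.8% to 30.4% and the longest from 35.7% to 40.7%. Across the 81 genes Spearman's correlation between coding length and log2 ratio was 0.57 (0.51 over the small and 0.63 over the large subunit), a description over genes that share the same 2 libraries and are not independent replicates. RPS2, RPSA and RPL7L1 were long and low, and were the exceptions among the lowest members. RPL36AL, left out by the name rule, encodes nearly the same protein as the 106 codons of RPL36A, and stood at 0.21. Among 206 other genes at 500 CPM or more with a coding length, the rank correlation was 0.24, and the medians for lengths up to 132 codons, from there to 188, and longer were -0.18, -0.01 and 0.22. With level in the vehicle library, by contrast, the members' ratio had a rank correlation of -0.22. The libraries also differed in the share of cells called G1 (36.6% and 88.5%), and values within phases are given further on. With 1 library per condition, an effect of treatment on this order and a difference between the library preparations cannot be told apart.

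**Figure D2:**
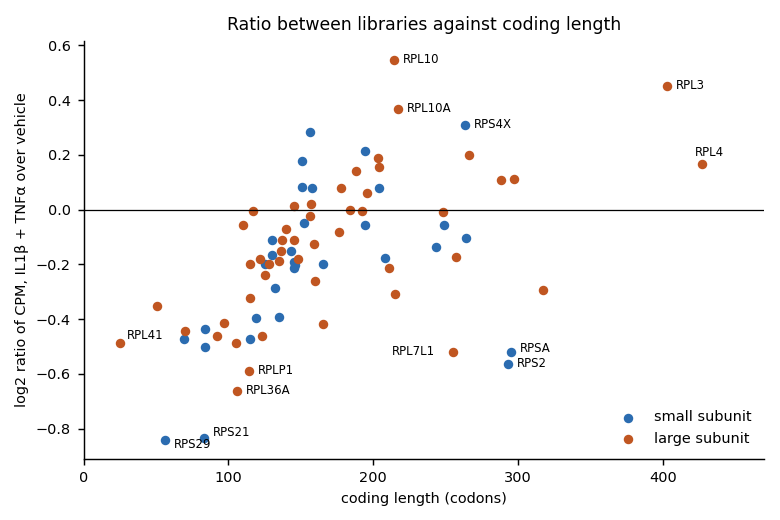
Log2 ratio of CPM, IL1β + TNFα over vehicle, against coding length in codons for the 81 ribosomal protein genes, small subunit in blue and large subunit in orange. The 27 genes with 132 codons or fewer all lie below 0, while RPL10, RPL3 and RPL10A lie highest among longer ones, and RPS2, RPSA and RPL7L1 are long and low.

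Genes with copies gave both parallel and opposite values. RPL36A and RPL36AL encode nearly the same protein, and their transcripts went opposite ways. RPL36AL was at 1132 CPM with vehicle and 1312 CPM with cytokines (log2 ratio 0.21), while RPL36A stood at -0.66. RPL36A made up 66.4% of the pair in the vehicle and 51.9% in the cytokine-treated library, a log2 difference of -0.87 (-0.89 to -0.86) that does not depend on scaling. RPL7L1, a copy of RPL7 also placed in ribosome assembly, was at 94.5 and 65.9 CPM (-0.52, -0.58 to -0.46), while RPL7 was at 4332 and 4304 CPM (-0.01). Their log2 difference was -0.51 (-0.57 to -0.45).

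The other copies stood closer to their partners. RPS27L, known as a target of p53, was at 552 and 389 CPM (-0.50, -0.53 to -0.48), and RPS27 at 5593 and 4131 CPM (-0.44), a log2 difference of -0.07 (-0.09 to -0.04). RPL26L1 was at 141 and 131 CPM (-0.11, -0.15 to -0.07) and RPL26 at 1749 and 1767 CPM (0.01), a difference of -0.12 (-0.17 to -0.08). RPL22L1 was at 91.9 and 81.1 CPM (-0.18, -0.23 to -0.13) and RPL22 at 1728 and 1506 CPM (-0.20). That difference of 0.02 had an interval from -0.04 to 0.07, and so was not detectable at this depth. RPL39 was at 3514 and 2755 CPM (-0.35). RPL39L, RPL3L, RPL10L and RPS4Y1 were not analysed here.

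Among the ribosomal proteins outside the name rule, RACK1, a scaffold on the small subunit, was at 1761 and 2342 CPM (0.41) and was counted as higher. FAU, made as a fusion with a ubiquitin-like protein, was at 1606 and 1745 CPM (0.12). These and RPL36AL stood above 0.

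Other mRNAs known to begin with a TOP tract stood above most ribosomal proteins. Of 16 such genes 9 were higher and 1 lower, with a median log2 ratio of 0.41, where 16.2% of all measured genes and 30.8% of other genes at 500 CPM or more were higher. TMM and median of ratios scaling each gave 12 higher and none lower. Of all measured genes 25.1% and 25.9% were then higher, and 25.1% and 24.0% lower. Coding length was not matched in this comparison. By total UMIs, the 27 longest ribosomal proteins had a median of -0.01. Other genes at 500 CPM or more with over 188 codons had a median of 0.22. EEF1A1, the factor that brings aminoacyl-tRNA to the ribosome, was at 4511 and 7324 CPM (0.70), and EEF2, which drives translocation, at 493 and 774 CPM (0.65). The initiation factor 3 subunits EIF3L and EIF3E were at 138 and 215 CPM (0.64) and at 288 and 442 CPM (0.62). PABPC1, the poly(A)-binding protein, was the 1 counted as lower, at 519 and 381 CPM (-0.45).

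Of 13 other translation factors 1 was higher and 7 lower, beside 16.2% and 38.6% of all measured genes, with a median of -0.35. TMM and median of ratios scaling each gave 2 higher and 4 lower, with medians of -0.17 and -0.16. Under these scalings 25.1% and 25.9% of all measured genes were higher, and 25.1% and 24.0% lower. The ribosome recycling factor ABCE1 was at 42.04 and 23.03 CPM (-0.87), EIF1AX at 236 and 144 CPM (-0.71), EIF5A at 452 and 304 CPM (-0.57) and EIF4G1 at 172 and 119 CPM (-0.54). The helicase EIF4A1 was the 1 higher, at 362 and 478 CPM (0.40).

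Of 9 measured regulators of ribosomal protein output, 1 was higher and 6 lower (median -0.44), beside 16.2% and 38.6% of all measured genes. TMM and median of ratios scaling each left 4 lower, beside 25.1% and 24.0% of all measured genes, with medians of -0.26 and -0.25. DDIT4, an inhibitor of mTOR complex 1, was higher at 54.5 and 103 CPM (0.92). EIF4EBP2 and EIF4EBP1, which bind and hold EIF4E, were at 61.02 and 32.4 CPM (-0.91) and at 285 and 167 CPM (-0.77), and LARP1 was at 65.3 and 43.2 CPM (-0.60). Protein and its phosphorylation were not measured. Of 78 mitochondrial ribosomal proteins 25 were lower and 1, MRPS28, higher (25.4 and 32.6 CPM, 0.36), beside 38.6% of all measured genes lower. Their median of -0.17 became 0.011 with TMM and 0.027 with median of ratios scaling, where 8 were higher and 6 lower. Beside these, 25.1% and 25.9% of all measured genes were higher, and 25.1% and 24.0% lower. The lowest was MRPL11 at 246 and 132 CPM (-0.90), followed by MRPS2 (-0.67), MRPL49 (-0.65) and MRPS12 (-0.53).

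**Figure D3:**
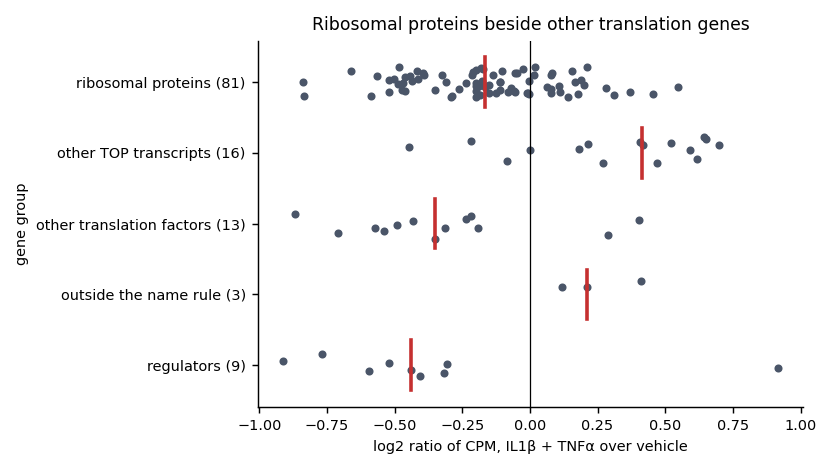
Log2 ratio of CPM, IL1β + TNFα over vehicle, for measured genes of each group, with the number of genes in brackets and the group median as a red line. The median of the 81 ribosomal proteins is -0.17, of the 16 other TOP transcripts 0.41, of the 13 other translation factors -0.35, of the 3 genes outside the name rule 0.21 and of the 9 regulators -0.44. Points are spread vertically for display.

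Phase calls deposited for each cell differed in number between the libraries. Of the vehicle cells, 1032 were called G1, 1273 S and 517 G2M, and of the cytokine-treated cells 2799, 324 and 40. Ribosomal protein transcripts made up 31.2%, 28.7% and 28.3% of UMIs in vehicle G1, S and G2M cells. In the cytokine-treated library they made up 26.9%, 27.3% and 24.2%. Vehicle G1 cells thus had the highest share, and cytokine-treated G1 cells did not stand above S cells of their library. Within G1 the log2 ratio between libraries of the summed members was -0.22 (-0.218 to -0.215), within S -0.07 and within G2M -0.23. Over all measured genes the median was -0.15, -0.15 and -0.004 within G1, S and G2M. The summed members thus stood below it within G1 and G2M and above it within S. Within G1, 24 members were lower and 1 higher, where 33.3% of measured genes were lower and 17.1% higher. RPS29 stood at -0.92, -0.72 and -0.72 within G1, S and G2M, RPS21 at -0.87, -0.67 and -0.56, and RPL36A at -0.73, -0.47 and -0.61. The low-level copies among the lowest members were not low within G2M, where RPL7L1 stood at -0.64, -0.39 and -0.02 (the last from -0.38 to 0.32) and RPS27L at -0.57, -0.36 and 0.11 (-0.01 to 0.23) within the 3 phases. The higher members also stood nearer 0 within G2M, which rests on 40 cytokine-treated cells. RPL10 was at 0.41, 0.50 and 0.10, RPL3 at 0.26, 0.55 and -0.01 and RPL10A at 0.17, 0.38 and -0.03. The rank correlation with coding length was 0.55, 0.51 and 0.48 within the 3 phases.

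Between phases of the vehicle library, 4 members were lower in S than in G1 and none higher, where 6.06% of measured genes were lower and 19.4% higher. RPL5 was at 1852 CPM in G1 and 1358 CPM in S (-0.45), RPL3 at 3407 and 2678 CPM (-0.35), RPL10A at 2532 and 1992 CPM (-0.35) and RPL13A at 5890 and 4655 CPM (-0.34). At the other end RPL22L1 stood at 0.08, RPS2 at 0.04, RPL41 at 0.03 and RPS20 at 0.03. In G2M against G1, 2 members were lower and none higher, where 10.3% of measured genes were lower and 21.5% higher. RPL24, a protein of the bridge between subunits, was at 1816 and 1396 CPM (-0.38) and RPL5 at 1852 and 1439 CPM (-0.36). RPL10A and RPL23 followed at -0.32 and -0.31. RPS27L was at 573 and 638 CPM (0.15), and RPS20, RPS21 and RPL41 stood at 0.06, 0.04 and 0.03.

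In the cytokine-treated library, S against G1 gave 1 member higher and none lower, where 20.9% of measured genes were higher and 10.8% lower. This was RPL22L1, at 77.3 CPM in G1 and 115 CPM in S (0.57, 0.47 to 0.68), while its partner RPL22 stood at 0.03. RPS20, RPL41 and RPL37 followed at 0.30, 0.29 and 0.18. RPL10, RPL5, RPS9 and RPL10A were the lowest, at -0.20, -0.16, -0.14 and -0.14. The 40 cells called G2M gave RPS27L at 385 CPM in G1 and 689 CPM in G2M (0.84, 0.72 to 0.96), RPL7L1 at 65.2 and 90.6 CPM (0.48, 0.13 to 0.80), RPS21 at 0.34 and RPS20 at 0.34. RPL3, RPL10A, RPL10 and RPL5 stood at -0.54, -0.52, -0.48 and -0.45. The rank correlation between coding length and the phase ratio was -0.44 for vehicle S against G1, -0.32 for vehicle G2M against G1 and -0.52 for cytokine-treated S against G1, so that longer members tended to stand lower outside G1. Phase was called from expression of the same cells.

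**Figure D4:**
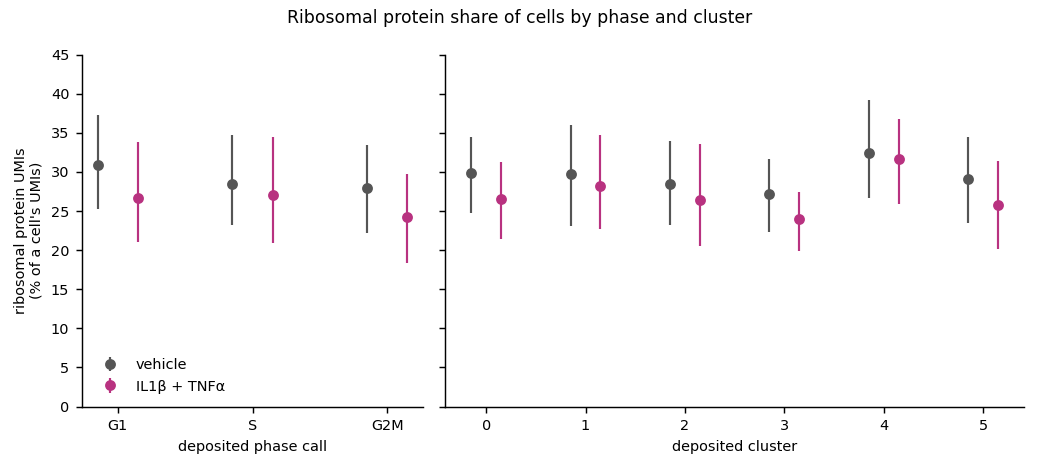
Ribosomal protein UMIs as a percent of a cell's UMIs by deposited phase call (left) and cluster (right), vehicle in grey and IL1β + TNFα in purple. Points are the median cell and bars run from the 5th to the 95th percentile of cells. The median is 30.9% in vehicle G1 cells and 26.7% in cytokine-treated G1 cells, and cluster 4 has the highest median in both libraries.

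The deposited clusters, numbered 0 to 5, differed in this share, with the same highest and lowest cluster in both libraries. Cluster 4 had the highest share, 32.8% of UMIs in the vehicle and 31.7% in the cytokine-treated library, and cluster 3 the lowest, 27.2% and 23.9%. The others were at 29.9%, 29.9%, 28.5% and 29.1% for clusters 0, 1, 2 and 5 of the vehicle library and at 26.4%, 28.6%, 26.7% and 25.8% in the other. Cluster sizes ran from 134 to 1100 cells. The clusters were made from expression of the same cells and which genes were used is not given in the sources used here, so these values describe the clusters and test nothing. By total UMIs, the summed members were lower in the cytokine-treated library within each cluster, from -0.05 in cluster 4 to -0.19 in cluster 3, and the rank correlation with coding length was 0.47 to 0.57. RPS29 stood between -0.87 and -0.70 and RPS21 between -0.86 and -0.54. RPL10 stood between 0.43 and 0.63 in clusters 0 to 4 and at 0.16 in cluster 5, where RPL3 was at 0.01.

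The 4 members encoded on chromosome 8, namely RPL7, RPL8, RPL30 and RPS20, were high in clusters 0 and 4 and low in clusters 1 and 3 of both libraries. Their summed level was 16167 and 17005 CPM in vehicle clusters 0 and 4, against 11189 and 10504 CPM in clusters 1 and 3. In the cytokine-treated library it was 13343 and 15901 CPM in clusters 0 and 4, against 10772 and 9041 CPM in clusters 1 and 3. To set these apart from the share of a whole cluster, each member's log2 ratio of a cluster to the other clusters of its library was taken relative to the median of all members. In vehicle cluster 0, RPL8, RPL7 and RPL30 stood 0.36, 0.33 and 0.30 above that median, and in vehicle cluster 3 RPL30, RPS20 and RPL7 stood -0.34, -0.31 and -0.29 from it. The cytokine-treated values for cluster 0 were 0.37, 0.30 and 0.32, in the same order of genes, and those for cluster 3 were -0.35, -0.27 and -0.27.

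The low-level copies had their own pattern over clusters. RPS27L and RPL7L1 were high in cluster 5, at 0.48 and 0.43 above the member median in the vehicle and 0.88 and 0.42 in the cytokine-treated library. RPS27L was there at 728 CPM, against 526 CPM in the other vehicle clusters, and at 672 against 379 CPM in the cytokine-treated library. RPL26L1 was high in cluster 3 (0.31 and 0.43) and low in cluster 4 (-0.39 and -0.51). RPL22L1 was high in cytokine-treated cluster 2 (0.48), which was nearly free of G1 cells (1.06%). In vehicle cluster 2, with 0% G1 cells, it was not among the 4 highest members. It was high in vehicle cluster 5 (0.23) and low in cytokine-treated cluster 5 (-0.27). RPL3, RPL10 and RPS4X stood at -0.43, -0.30 and -0.26 in cytokine-treated cluster 5. RPL26L1, RPL7L1 and RPL22L1 rest on few UMIs per cell.

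**Figure D5:**
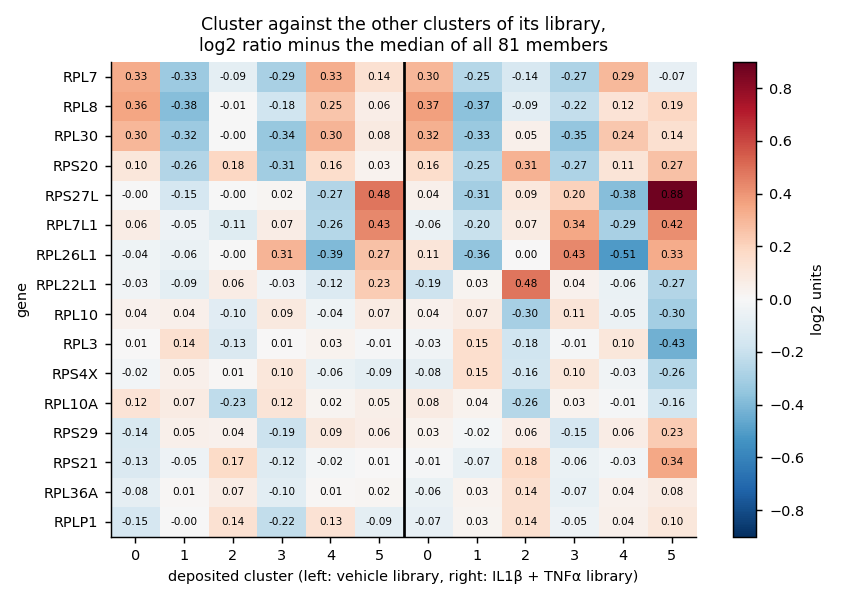
Log2 ratio of each deposited cluster (0 to 5) to the other clusters of the same library, minus the median of all 81 members, for 16 ribosomal protein genes. The left columns are the vehicle library and the right columns the IL1β + TNFα library. RPL7, RPL8 and RPL30 are above the median in clusters 0 and 4 and below it in 1 and 3 in both libraries, and RPS27L in cluster 5 of the cytokine-treated library has the largest value shown, 0.88.

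Across single cells most members went together. Pearson's r of a member with the sum of all other members, both as natural logs of 1 plus the count per 10000 UMIs, had a median of 0.56 over members in 2822 vehicle cells and 0.60 in 3163 cytokine-treated cells. It was 0.52 and 0.56 when each cell was thinned to 15000 UMIs. RPS18 had the highest r, 0.80 and 0.82. The lowest were the 4 copies, with RPL7L1 at -0.10 and -0.08, RPS27L at -0.06 and -0.14, RPL26L1 at -0.07 and -0.14 and RPL22L1 at 0.02 and 0.09. Points in these correlations share a library and a cell's total. The 4 copies were also the members with the lowest counts, and the next in level, RPS13 and RPL27, had r of 0.50 and 0.40 in the vehicle library. The variance of thinned counts was 2.38 times the Poisson variance for the median member in the vehicle and 2.37 times in the cytokine-treated library. RPL10 had the highest value of this measure, at 13.5 and 16.8 times, followed by RPL7 at 8.57 and RPS2 at 8.42 times in the vehicle library. The measure grows with the mean count, which was 271 thinned UMIs for RPL10 and 64.9 for RPL7 in the vehicle library. The excess over Poisson divided by the squared mean, a measure added after seeing the data, was 0.116 for RPL7, the highest in the vehicle library, and 0.0461 for RPL10. RPL26L1 and RPL7L1 were close to Poisson, at 1.04 and 1.05 times in the vehicle library. The share of a cell's UMIs in ribosomal protein genes had r of 0.11 and -0.11 with the cell's UMIs, and of 0.01 and 0.14 with its mitochondrial percent.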

How the data were processed

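Per the submitters' processing notes and the study's methods, reads were counted as UMIs on GRCh38 by Cell Ranger 3.1.0 and cells were filtered in Seurat 4.0.4. The filter kept cells below 50000 UMIs, between 3000 and 5000 genes and below 15% mitochondrial UMIs, and dropped genes found in under 10 cells. In the deposited data 0 cells lay outside the limits for cells, while 328 genes were found in under 10 cells. The limit on genes per cell may have removed unequal shares of 2 cultures. The authors deposited raw counts without normalization, and a cell table with UMI counts, gene counts, mitochondrial percent, phase calls and cluster numbers. Doublets were not called here, and 8 barcodes occurred in both libraries.

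UMIs were summed per library, phase or cluster and divided by the total to give CPM. Log2 ratios have exact conditional binomial intervals, which leave out the spread between cells and between cultures. Genes counted as measured from CPM 5 in either library, and calls needed a ratio of at least 5 to 4 (2-fold as a second limit). Coding lengths, without the stop codon, came from GENCODE 44 canonical transcripts. Members, lists and the rule for named genes (a fixed set, the 8 highest and 8 lowest ratios, the 4 at each end for phases and clusters, the 4 lowest correlations, the 5 at each end of level and up to 4 of each other list) were chosen with earlier results of these data known. Genes named outside that rule to make a count complete were chosen after their values were seen. Alternatives were TMM (edgeR 4.0.16), median of ratios (DESeq2 1.42.0), totals leaving out ribosomal protein and mitochondrial genes, averages of CPM over cells, G1 cells alone, a mitochondrial limit of 10%, cells thinned to 15000 UMIs and CPM limits of 1 and 20. The call rule was tried on counts simulated with Poisson error alone. That simulation held no spread between cells or cultures, so it does not bear on calls between 2 cultures. Python 3.11.15, numpy 2.4.6, scipy 1.17.1 and R 4.3.3 were used. Some listed genes are not reported here.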

Additional observations from a re-analysis of the deposited data

Results flagged for a closer look

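The summed ribosomal protein transcripts stood on opposite sides of 0 for S against G1 in the 2 libraries, at a log2 ratio of -0.12 (-0.126 to -0.123) in the vehicle and 0.02 (0.020 to 0.024) in the cytokine-treated library. The cytokine-treated minus the vehicle value was 0.15. With 1 library each, the difference was not tested, and 1273 and 324 cells called S entered it. For the same comparison the median over all measured genes was 0.07 in the vehicle and 0.05 in the cytokine-treated library. The summed members stood below that median in both libraries. The median member was at -0.11 in the vehicle library, below it, and at 0.051 in the cytokine-treated library, just above its 0.045. With totals free of ribosomal protein and mitochondrial genes the median member was at -0.18 and 0.055, so the signs stayed opposite. TMM and median of ratios scaling were not run between phases.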

How the results depend on the processing

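The log2 ratio of the summed members, -0.13, turned to 0.045 with TMM and 0.060 with median of ratios scaling. It was -0.19 with totals free of ribosomal protein and mitochondrial genes, -0.12 as a mean of per-cell CPM, -0.22 in G1 cells alone, -0.13 under 10% mitochondrial UMIs (-0.134), -0.13 with thinned cells (-0.126) and -0.19 without RPL10, the last chosen after seeing the data. The median member, at -0.17, turned to 0.012 with TMM and 0.028 with median of ratios, and was -0.22 with the reduced totals, -0.15 as a mean of cells and -0.25 in G1 cells. TMM gave 11 members higher and 8 lower, median of ratios 12 and 7, and G1 cells alone 1 higher, against 3 and 22. Counts of shares within the sum stayed within 6 to 8 higher and 12 to 14 lower, and CPM limits of 1 and 20 left every member in. With reduced totals the median for S and for G2M against G1 in the vehicle library was -0.18 and -0.23. In G1 cells, cluster 4 over cluster 3 in the vehicle library was 0.29 for all members and 0.72 for those on chromosome 8. After thinning, median r across cells was 0.52 and 0.56. No paired analysis was possible because there was 1 library per condition. Counting error was small beside the differences except for the low-level copies, and the spread between cultures was not measured.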
